A study of Mus musculus with 70 samples.

Results

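The miR-297, miR-466, miR-467 and miR-669 families were examined in small RNA libraries of mouse microglia and of the remaining brain cells. Members were all miRNAs listed under 1 of the 4 family numbers followed by a letter, a hyphen or the end of the name. Under 80 names the table had 156 entries. For the 20 names with several entries, the one with most counts was retained, and names with identical counts in every library were counted once, which left 71 members. The table held 1882 features in all, among them the 9 names with the counts of another member. Of these, 62 passed the filter of at least 1 CPM, the count scaled to the library's total, in at least 5 libraries and were tested among 1072 features, which include those 9 names. The other 9 members, miR-466l-5p, miR-466o-3p, miR-467b-3p, miR-467f, miR-467g, miR-669g, miR-669j, miR-669k-3p and miR-669n, had between 1 and 97 counts over all analysed libraries.

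Whole brains of wild-type C57BL/6 mice of both sexes were dissociated at postnatal day 6 (P6), P15 and 8 weeks. CD45+ cells were captured by immunopanning on an antibody-coated dish and are called microglia, although CD45 marks monocytes and other leukocytes too. The CD45- cells that were not captured are called bulk cells and contain neurons, oligodendrocytes, astrocytes, endothelial cells and others. Each mouse gave 1 library of each fraction, and 68 libraries of 34 mice were analysed, namely those of 4 female and 6 male mice at P6 and of 6 female and 6 male mice at both P15 and 8 weeks.

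MicroRNAs are short RNAs cut from hairpin precursors, and each precursor can give a mature strand from its 5′ arm (5p) and one from its 3′ arm (3p). Bases 2 to 8 of the mature strand, the seed, pair with target mRNAs. In rodents, precursors of these families are repeated many times over within an intron of Sfmbt2, a gene of the Polycomb group. This cluster is best known from the placenta, where Sfmbt2 is imprinted and expressed from the paternal allele. Many of the mature strands are built from runs of alternating purines and pyrimidines, such as repeats of UG or AC.

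The label of an Sfmbt2 cluster held for most but not all members. In the GRCm38 annotation 71 of 81 precursors of the 4 families lay inside Sfmbt2 (chr2:10370510-10595253, plus strand). They spanned 51617 bases at chr2:10466663-10518279 on the plus strand. All were within a single intron (chr2:10461473-10523944), which is intron 10 of 1 Sfmbt2 transcript and intron 11 of another, and 0 overlapped an Sfmbt2 exon. Inside the intron there were 5 precursors of miR-297, 23 of miR-466, 14 of miR-467 and 29 of miR-669. The other 10 precursors were scattered over chromosomes 3, 5, 7, 9, 10, 11 and 13. Of the 71 members, 57 had precursors only inside Sfmbt2, 9 only elsewhere, 3 in both places, and 2, the arms of miR-466a, were not matched to a precursor by name. The match was by name throughout, and the precursor Mir297-1 on chromosome 7 was assigned to no member, although miR-297a-5p had 4 entries and 3 matched precursors.

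**Figure D1:**
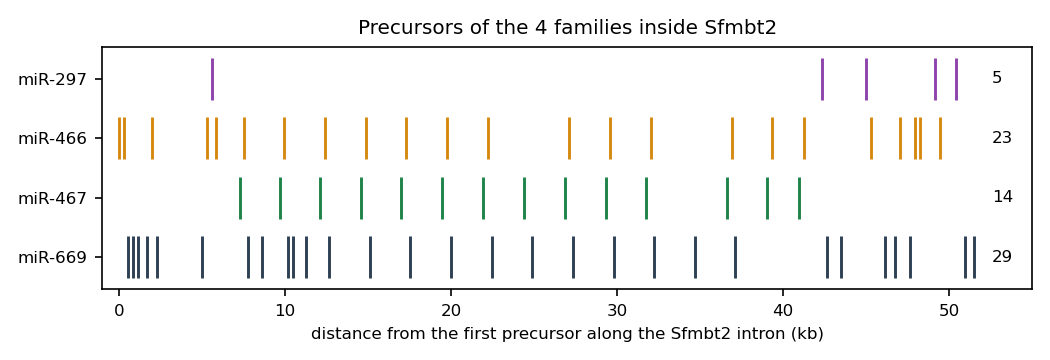
Positions of the precursors inside Sfmbt2, as distance in kb from the first one along the intron. Each vertical line is 1 precursor and each row 1 family, with the number of precursors at the right. Through the middle of the cluster, precursors of miR-467, miR-466 and miR-669 follow each other in repeated sets.

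Mature sequences were taken from RefSeq (GRCm38.p6) for the 8 of 80 names that had an entry, all of them outside Sfmbt2. They are shown because they make the repeat-like composition visible and because miR-466k and miR-467h recur in the results. The seed is in capitals.

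miR-466k: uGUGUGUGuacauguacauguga
miR-466j: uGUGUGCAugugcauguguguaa
miR-467h: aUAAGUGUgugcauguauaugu
miR-669n: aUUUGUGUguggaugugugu
miR-466i-3p: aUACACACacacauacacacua
miR-466q: gUGCACACacacacauacgu
miR-467f: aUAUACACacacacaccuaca
miR-467g: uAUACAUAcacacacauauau

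miR-466k and miR-466j lie on the plus strand at chr3:85467396-85467418, opposite to a gene named Gm37240, and at chr10:60960802-60960824, outside annotated genes. miR-467h lies on the plus strand at chr9:115381898-115381919, also outside annotated genes. miR-669n (chr3:115979905-115979924, plus strand), miR-466i-3p (chr13:17747552-17747573, plus strand), miR-467f (chr11:69635419-69635439, minus strand) and miR-467g (chr5:34732872-34732892, minus strand) lie in introns of, and opposite to, Slc30a7, Cdk13, Fxr2 and Grk4. miR-466q (chr3:28419988-28420007, plus strand) lies in an intron of Tnik on the same strand. All 8 seeds differed from each other, so no pair of these names shares a seed in spite of the shared family number. The longest run of alternating purines and pyrimidines had a median length of 20 bases in these 8 names and of 4 bases in the other 1671 mature mouse names of the table. The 7-letter motif UGUGUGU was in 3 and ACACACA in 4 of the 8 as read 5′ to 3′, with no overlap between the sets, and 0.539% of the other names held either motif.

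Counts of near-identical members could not be told apart. Identical counts in every library were found for 16 names in 7 groups, such as miR-467a-5p with miR-467b-5p, miR-669a-5p with miR-669p-5p, and miR-466c-3p with miR-466b-3p and miR-466p-3p. A further set had counts that differed by at most 5% of the larger total, namely miR-467a-3p with miR-467d-3p, miR-466m-5p with miR-669m-5p, and miR-466c-3p with miR-466a-3p and miR-466e-3p. Merging these would leave 67 members. Counts of members below are therefore counts of names with different values, not of independent loci, and a shared read enters a sum once for each name.

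Library totals over the 1882 features ranged from 1678034 to 4066435 counts in P6 microglia and from 2795957 to 8747394 counts in the other 5 groups of age and fraction. CPM values are counts relative to these totals, and 3 counts, taken as the floor, were worth 0.343 to 1.79 CPM depending on the library. Floors cover counting error only. The summed level of the myeloid miRNAs miR-142a-3p, miR-142a-5p and miR-223-3p ran from 10644 CPM upwards in microglia and reached at most 503 CPM in bulk cells. Markers of other cells were present in the microglial libraries as well. The summed level of 5 neuronal miRNAs had medians of 26060, 24716 and 22501 CPM in microglia at P6, P15 and 8 weeks, and of 77348, 104208 and 145310 CPM in bulk cells. All 3 erythroid miRNAs were higher in microglia than in bulk cells at each age. No marker was at 0 in any group. The oligodendrocyte miRNAs miR-219a-5p and miR-338-3p rose in bulk cells with age, from a median summed level of 1350 CPM at P6 to 10740 CPM at P15 and 19729 CPM at 8 weeks.

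The summed level of the 71 members was somewhat higher in microglia than in the bulk cells of most young mice, with overlapping ranges, and the gap was wider in adult mice. In microglia it ranged from 2588 to 3902 CPM at P6 with a median of 3175 (n = 10), from 2354 to 3341 at P15 with a median of 2923 (n = 12) and from 2343 to 2951 at 8 weeks with a median of 2592 (n = 12). In bulk cells the sum ranged from 2014 to 3272 CPM at P6 with a median of 2716, from 2081 to 2658 at P15 with a median of 2446, and from 742 to 1095 at 8 weeks with a median of 1015. Every bulk library of 8 weeks was thus below every other library, whereas the ranges of the fractions overlapped at P6 and P15. Within mice the microglial sum was the higher in 9 of 10 at P6, 11 of 12 at P15 and 12 of 12 at 8 weeks, with a median ratio to the bulk sum of 1.17, 1.19 and 2.58. The exceptions were P6 female 2 and P15 male 1. No test was made on the sum. Both sexes had this order, with bulk medians at 8 weeks of 1025 CPM in females and 1001 CPM in males. In bulk tissue fewer cells of a type and less RNA per cell cannot be told apart.

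**Figure D2:**
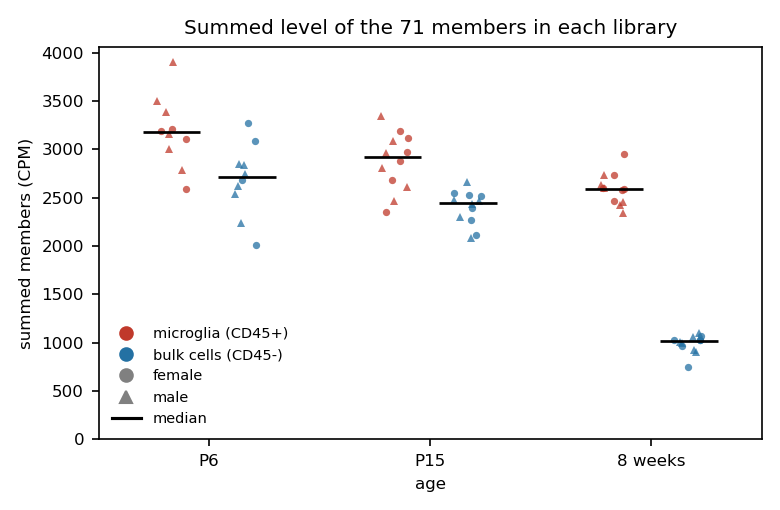
Summed CPM of the 71 members in each of 68 libraries, by age. Red is microglia, blue is bulk cells, circles are females, triangles are males and the black bar is the median of the group. The 12 bulk libraries of 8 weeks lie between 742 and 1095 CPM, below all others.

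The members differed widely in level. Over all 68 libraries 8 members had a mean of 100 CPM or more, 29 had a mean between 10 and 100 CPM, 17 between 1 and 10 CPM and 17 under 1 CPM. The most abundant was miR-467a-5p with a mean of 306 CPM, whose count is shared with miR-467b-5p and which has 10 precursors in the intron. It was followed by miR-467e-5p at 254 CPM and miR-669c-5p at 209 CPM, each with 1 precursor, and by miR-669b-5p at 126 CPM. Next came miR-669a-5p at 108 CPM, the miR-466e-3p, miR-466a-3p and miR-466c-3p group at 106 CPM, miR-669a-3p at 96.6 CPM, miR-669o-5p at 92.4 CPM, miR-466i-5p at 86.0 CPM and miR-467c-5p at 85.1 CPM. Counts were not divided by length. Of the 33 hairpin names with both arms listed, 23 had more reads of the 5p arm and 10 more of the 3p arm. The 5p arm led for 2 of 3 miR-297, 5 of 13 miR-466, 5 of 5 miR-467 and 11 of 12 miR-669 hairpin names, some of which share counts, and no test was made. Within miR-466 both sides occurred. The 5p arm led by a ratio of 43.5 for miR-467e and 203 for miR-669c and 85.0 for miR-466o, whereas the 3p arm led for miR-466a to miR-466f, miR-466h and miR-466p, with a 5p to 3p ratio of 0.101 for miR-466e. The 5p count of miR-466o is that of miR-466b-5p, for which the 3p arm led, so the ratio of 85.0 rests on shared reads. In the same way miR-466n, led by its 5p arm, has the 5p count of miR-466d.

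The first question was whether the members were enriched in microglia. With the ages pooled, 5 of 62 members were higher in microglia and 0 were lower by at least the 2-fold difference that limma's TREAT test was set against (adjusted p under 0.05). Among all features tested, 23.3% were higher and 21.8% lower, so that the share of members called was below the background in both directions. edgeR called 1 member lower and DESeq2 0, and 0 lower members had an unadjusted p under 0.05 by TREAT. The median log2 fold difference was 0.61 over the members and 0.29 over all features. Those called were miR-467a-3p (log2 1.52, SE 0.08, adjusted p = 2.943e-08) with the near-identical miR-467d-3p (log2 1.52, SE 0.08), miR-466k (1.39, SE 0.13), miR-467c-5p (1.27, SE 0.06) and miR-466f-3p (1.23, SE 0.09). miR-467a-3p and miR-467c-5p were higher in the microglia of 34 of 34 mice. The count of 5 fell to 2 once near-identical members were merged, in which case another library served as reference for the scaling.

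The ages differed. At P6, 2 of 62 members were called higher in microglia against 17.4% of all features, and 0 lower against 10.6%. At P15, 2 were called higher against 21.3%, and 0 lower against 18.7%. At 8 weeks, 32 of 62 members were called higher against 21.2% of all features, and 0 lower against 23.7%. For the lower direction, 0 members had an unadjusted p under 0.05 by TREAT at each of these ages, and the sole call by another tool was 1 by edgeR at P15. Over the members the log2 difference had a median of 0.12 at P6, of 0.48 at P15 and of 1.49 at 8 weeks, compared with 0.25, 0.28 and -0.10 over all features. The medians of the young ages depended on the processing, from -0.01 with near-identical members merged to 0.21 with thinned libraries at P6, and from 0.18 with merging to 0.49 with summed entries at P15, where the library size alone gave 0.27. By CPM alone, 33 of 62 members had microglial libraries that were all above all bulk libraries at 8 weeks (18.9% of all features), as had 3 at P6 (13.5%) and 2 at P15 (13.2%). No member passed the test in the same direction at all 3 ages, and 30 of the 34 members called at any age were called at 8 weeks alone. These combined counts have no matching share over all features here and are not read as a pattern particular to the members. The 32 members called at 8 weeks were between 2.43-fold and 5.85-fold higher in microglia.

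**Figure D3:**
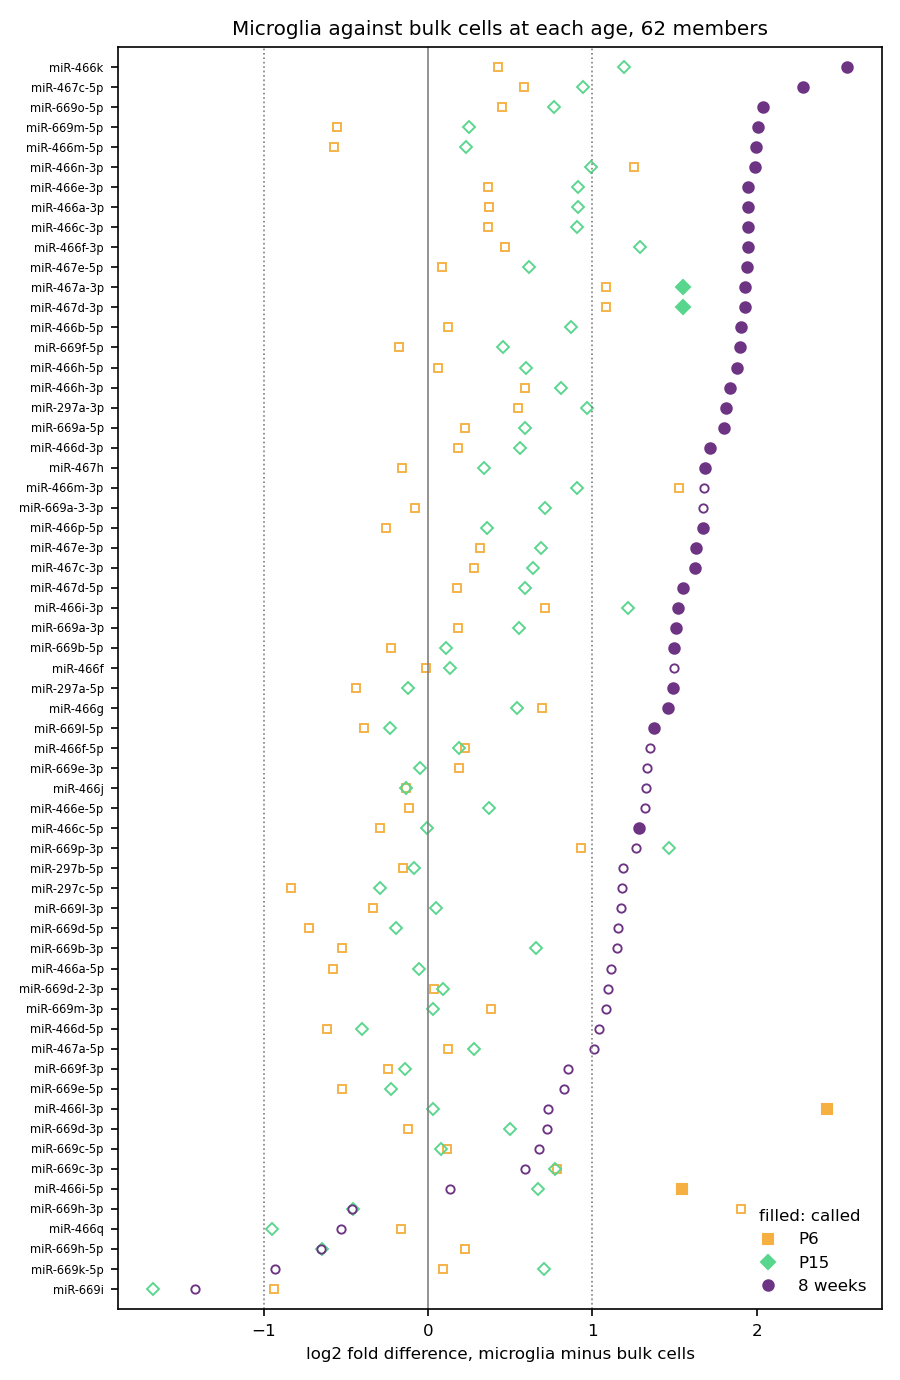
Log2 fold difference between microglia and bulk cells for each of the 62 tested members at P6 (squares), P15 (diamonds) and 8 weeks (circles), ordered by the value at 8 weeks. Filled symbols passed the test, and the dotted lines mark a 2-fold difference. At 8 weeks 57 of 62 values lie above 0, against 37 at P6 and 46 at P15.

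Named for the size of their difference at 8 weeks were miR-466k, miR-467c-5p and miR-669o-5p. miR-466k, the UG-repeat miRNA of chromosome 3, had between 6.03 and 17.4 CPM in microglia of 8 weeks with a median of 9.40 CPM, and between 0.465 and 3.07 CPM in bulk cells with a median of 1.97 CPM. The fractions did not overlap, although the lowest bulk library held only 3 counts. The log2 difference of 2.55 (SE 0.26, adjusted p = 1.715e-07) had the same sign in 12 of 12 mice, compared with 0.42 (SE 0.20) at P6 and 1.19 (SE 0.21) at P15.

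miR-467c-5p, from a precursor at chr2:10473931-10474027, had 97.6 to 131 CPM in microglia of 8 weeks with a median of 110, and 18.1 to 31.7 CPM in bulk cells with a median of 23.4. At P6 the medians were 131 and 77.9 CPM, and at P15 112 and 62.6 CPM. The microglial median was above the bulk median at each age, and the gap was widest at 8 weeks, with a log2 difference of 2.28 (SE 0.12, adjusted p = 1.377e-15, 12 of 12 mice).

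miR-669o-5p (precursor at chr2:10514300-10514395) ranged from 112 to 155 CPM in microglia and from 25.3 to 44.2 CPM in bulk cells of 8 weeks, with medians of 125 and 30.5. Its log2 difference was 2.04 (SE 0.11, adjusted p = 1.722e-13, 12 of 12 mice), after 0.45 (SE 0.11) at P6 and 0.77 (SE 0.10) at P15.

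Of the 9 tested members of the miR-467 family, 8 were called higher in microglia at 8 weeks and all 9 had a negative log2 change in bulk cells from P6 to 8 weeks, 3 of them called. Of all features, 21.2% were called higher and 12.4% lower in these comparisons. miR-467e-5p (chr2:10505721-10505807) had medians of 308, 317 and 308 CPM in microglia at the 3 ages and of 281, 240 and 84.0 CPM in bulk cells. At 8 weeks its microglial libraries (278 to 355 CPM) were all above its bulk libraries (62.8 to 108 CPM), with a log2 difference of 1.94 (SE 0.08, adjusted p = 3.445e-16). For miR-467a-5p the medians were 427, 342 and 240 CPM in microglia and 363, 340.99 and 128 CPM in bulk cells. Although its fractions did not overlap at 8 weeks either (181 to 346 against 107 to 155 CPM), the log2 difference of 1.01 (SE 0.08) did not pass the test against 2-fold (adjusted p = 0.708).

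The opposite arm, miR-467a-3p, which cannot be separated from miR-467d-3p, had medians of 53.1, 49.6 and 51.3 CPM in microglia and of 22.7, 20.9 and 13.8 CPM in bulk cells. It was higher in microglia in every mouse of each age, with a log2 difference of 1.08 (SE 0.14) at P6 that was not called (adjusted p = 0.586). It was called at P15 with 1.55 (SE 0.14, adjusted p = 0.0003055), and the adult value was 1.93 (SE 0.14, adjusted p = 2.233e-08). This pair of names made up both calls of P15.

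Of the 2 calls at P6, miR-466i-5p was read in every library and is described below. miR-466l-3p was near the floor, with 0 to 1.79 CPM in P6 microglia (median 0.820) and 0 to 0.976 CPM in bulk cells (median 0). Its log2 difference of 2.42 (SE 0.54, adjusted p = 0.0203) was positive in 9 of 10 mice, and the number of P6 calls fell from 2 to 1 when any 1 of 6 mice (P6 females 2 and 3, P6 males 1, 2, 4 and 6) was left out. No P6 bulk library reached 1 CPM, the level of the filter, which this member met in 6 libraries over all ages and fractions. The size of the difference is therefore not established, and the call is not taken as support for a difference at P6.

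The second question was how the members changed with age within each fraction. In bulk cells calls were found in both intervals that ended at 8 weeks and in none from P6 to P15. From P6 to P15, 0 of 62 members were called in bulk cells (background 1.87% higher and 1.68% lower), with 0 members at an unadjusted p under 0.05 and 0 calls by edgeR and DESeq2. From P15 to 8 weeks, 6 were called lower against 4.94% of all features and 0 higher against 6.06% (0 at an unadjusted p under 0.05, and 0 by edgeR and DESeq2). With the library size alone 19 were called lower against 9.8% of all features. The median log2 change of the members was then -1.27 in place of -0.81 and that of all features -0.23 in place of 0.24, so that the members were 1.04 below all features in place of 1.05. From P6 to 8 weeks, 23 were called lower against 12.4% of all features and 1 higher against 13.2%. The median log2 change from P6 to 8 weeks was -1.14 over the members and 0.32 over all features. The 23 that fell did so by between 2.31-fold and 5.60-fold. By CPM, 28 of 62 members had all 8-week bulk libraries below all P15 bulk libraries (12.3% of all features) and 28 had them below all P6 libraries (15.7%).

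The 3 largest falls from P15 to 8 weeks were of miR-297a-5p, miR-669b-5p and miR-466d-5p. miR-297a-5p ranged from 49.97 to 105 CPM in bulk cells of P6 (median 76.7), from 39.4 to 79.0 at P15 (median 55.5) and from 7.76 to 15.4 at 8 weeks (median 10.8). All adult bulk libraries were below all younger ones. It fell by 1.90 on the log2 scale from P15 (SE 0.15, adjusted p = 2.422e-06) and by 2.48 from P6 (SE 0.15, adjusted p = 2.241e-13). In microglia its medians were 54.8, 46.7 and 28.9 CPM, and all 8-week libraries (22.7 to 35.9 CPM) were below all P6 libraries (50.5 to 77.0 CPM). The fitted log2 change from P6 to 8 weeks was -0.56 with TMM factors (SE 0.14, adjusted p = 1) and -1.01 with the library size alone, and it was not called with either.

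miR-669b-5p (chr2:10467790-10467886) went from medians of 180 and 157 CPM in bulk cells of P6 and P15 to 35.8 CPM at 8 weeks, where its libraries (24.5 to 47.8 CPM) were below all younger ones (121 CPM and above). It fell by 1.59 on the log2 scale from P15 (SE 0.11, adjusted p = 8.835e-06) and by 1.99 from P6 (SE 0.11, adjusted p = 4.529e-12). Its microglial medians were 167, 146 and 96.6 CPM, and the 8-week libraries (75.4 to 120 CPM) were all below those of P6 (122 to 202 CPM). The fitted log2 change was -0.27 with TMM factors (SE 0.10) and -0.73 with the library size alone, neither of them called. At 8 weeks it was higher in microglia (log2 1.497, SE 0.10, adjusted p = 1.307e-05), whereas at P6 it was higher in the bulk cells of 9 of 10 mice without passing the test (log2 -0.22, SE 0.10). 

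miR-466d-5p, whose count is that of miR-466n-5p, had bulk medians of 28.2, 29.8 and 8.07 CPM. It fell by 1.46 on the log2 scale from P15 to 8 weeks (SE 0.16, adjusted p = 0.0252), with 22.4 to 36.0 CPM against 3.72 to 11.4 CPM. That call was lost without 8-week female 4 (log2 -1.35) and without 8-week male 2. The other calls of this interval were miR-669f-5p (log2 -1.44), miR-669l-5p (log2 -1.37) and miR-297c-5p (log2 -1.35), all 5p arms with no overlap between the ages. Of the other named members, miR-467e-5p fell by 1.37 from P6 to 8 weeks in bulk cells (SE 0.09, adjusted p = 0.0005135), miR-466e-3p by 1.38 (SE 0.11, adjusted p = 0.001852), miR-467c-5p by 1.403 (SE 0.13, adjusted p = 0.006566), miR-466k by 1.93 (SE 0.27, adjusted p = 0.003004) and miR-467a-5p by 1.21 (SE 0.09, adjusted p = 0.0420). The last of these was close to the threshold and was lost when any 1 of 26 of the 34 mice was left out. That of miR-467c-5p was lost when all libraries were thinned to equal totals (log2 -1.28). miR-466k was low, with a mean of 8.65 CPM over all libraries, and its lowest adult bulk library was at the floor of 3 counts. The changes of miR-669c-5p (log2 -0.64, SE 0.11), miR-669a-5p (-0.77, SE 0.14), miR-669a-3p (-0.98, SE 0.14) and miR-669o-5p (-0.96, SE 0.12) were not called. With the library size alone, that of miR-669o-5p was called (log2 -1.275).

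The calls were also counted by arm. From P6 to 8 weeks in bulk cells, 19 of 28 tested 5p members and 3 of 27 tested 3p members were called lower, with median log2 changes of -1.51 and -0.97, against 12.4% of all features. The 3p calls were miR-466a-3p, miR-466c-3p and miR-466e-3p, which share nearly all reads. The arms also differed in level, with more 3p than 5p members under 10 CPM. Of the 25 tested members under that level 1 was called lower, compared with 22 of the 37 others. At 8 weeks 15 of 28 tested 5p members and 14 of 27 tested 3p members were called higher in microglia, with medians of 1.36 and 1.62, against 21.2% of all features. By family, the median log2 difference at 8 weeks was 1.34 for 4 miR-297 members, 1.67 for 25 miR-466 members, 1.69 for 9 miR-467 members and 1.15 for 24 miR-669 members. These differences between arms and families were not tested, since members share reads.

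**Figure D4:**
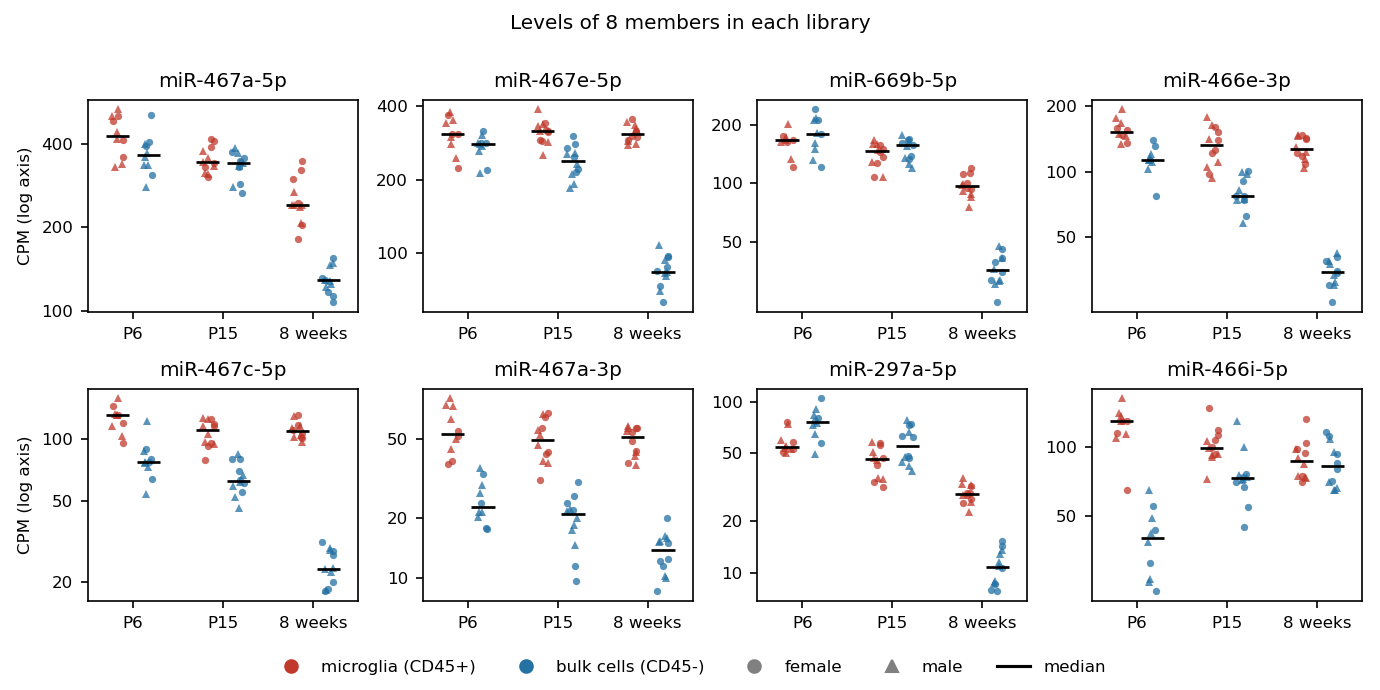
CPM of 8 members in each library on a log axis, by age, for microglia (red) and bulk cells (blue), with circles for females, triangles for males and a bar for the median. In 7 of the panels the 8-week bulk libraries lie below those of microglia of that age. miR-466i-5p differs, with bulk medians of 40.3, 73.1 and 82.4 CPM.

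In microglia 0 of 62 members passed the test in any of the 3 age comparisons. The background was 0.746% higher and 2.15% lower from P6 to P15, 1.77% and 2.8% from P15 to 8 weeks, and 7.18% and 9.42% from P6 to 8 weeks. With TREAT 0 members had an unadjusted p under 0.05, and edgeR and DESeq2 called 0 members in each. Against a difference of 0 in place of 2-fold, 16 members were called higher and 3 lower from P6 to 8 weeks, compared with 23.6% higher and 30.3% lower of all features under that test. By CPM, 2 of 62 members, miR-297a-5p and miR-669b-5p, had all 8-week microglial libraries below all P6 libraries (13.2% of all features). The direction of these small changes depended on the scaling. The median log2 change of the members from P6 to 8 weeks in microglia was 0.20 with TMM factors and -0.27 with the library size alone, and that of all features was -0.17 and -0.64. Relative to the median of all features, the members were 0.37 higher under both scalings. Over the other settings this offset ran from 0.18 with thinned libraries to 0.44 without a filter. In bulk cells the medians were -1.14 and -1.48 for the members and 0.32 and 0.01 for all features.

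**Figure D5:**
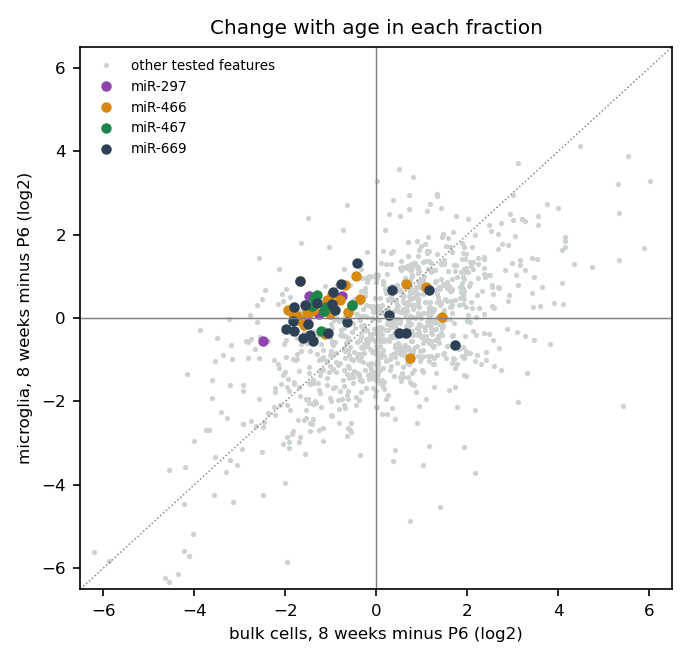
Log2 change from P6 to 8 weeks in bulk cells (horizontal) and microglia (vertical) for 1072 tested features. Coloured points are the 62 tested members by family, grey points are the other features, and the dotted line marks equal change. Members lie left of 0 in bulk cells in 52 of 62 cases, and in microglia 44 are above 0 with TMM factors.

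The third question was whether the difference between the fractions itself changed with age. The interaction of cell type with age, 8 weeks against P6, was called for 24 of 62 members in the direction of a larger microglial excess at 8 weeks, against 6.62% of all features, and for 0 in the other direction, against 7.93%. In that other direction 1 member had an unadjusted p under 0.05 by TREAT, edgeR called 1 and DESeq2 0. The median over the members was 1.403 on the log2 scale and -0.49 over all features. Of the 32 members higher in microglia at 8 weeks, 20 also had an interaction, and 16 had both an interaction and a fall in bulk cells. As these comparisons share libraries, the counts are given side by side and are not independent of each other. For the combinations no share over all features is given. Of the 24 members, 20 had a negative change in bulk cells together with a positive one in microglia by TMM, none of the latter past the test.

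Its largest values were those of miR-466m-5p (2.57, SE 0.30, adjusted p = 1.949e-05) and the near-identical miR-669m-5p (2.56, SE 0.30), followed by miR-466k (2.13, SE 0.33, adjusted p = 0.00521). The precursor of miR-466m-5p is the first of the cluster (chr2:10466663-10466746), although its counts are nearly those of miR-669m-5p. In microglia it ranged from 1.80 to 22.5 CPM at P6, from 8.63 to 19.1 at P15 and from 9.83 to 18.9 at 8 weeks, with medians of 11.5, 12.5 and 13.3. In bulk cells its medians were 13.4, 13.2 and 3.47 CPM, and the adult libraries reached at most 5.28 CPM. With single mice left out the interaction stayed between 2.36 and 2.73. Of the most abundant members, miR-467e-5p had an interaction of 1.86 (SE 0.12, adjusted p = 1.823e-08), miR-669b-5p of 1.72 (SE 0.14, adjusted p = 3.053e-05), miR-467c-5p of 1.70 (SE 0.16, adjusted p = 0.0004155), and miR-466e-3p and miR-669o-5p of 1.58 (SE 0.14 and 0.15).

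miR-466i-5p went the other way. Its precursor (chr13:17747473-17747593, plus strand) lies in an intron of Cdk13 on the opposite strand and not in the Sfmbt2 intron. In bulk cells it ranged from 23.5 to 64.7 CPM at P6 (median 40.3), from 44.8 to 129 at P15 (median 73.1) and from 64.5 to 115 at 8 weeks (median 82.4). In microglia its range was 64.9 to 162 CPM at P6 (median 129), 72.7 to 147 at P15 (median 99.0) and 70.5 to 131 at 8 weeks (median 86.2). The fractions were thus apart at P6, by a narrow margin, and overlapped at P15 and 8 weeks. It was higher in microglia at P6 by 1.54 on the log2 scale (SE 0.13, adjusted p = 0.0004546, 10 of 10 mice), and the difference was 0.67 (SE 0.12) at P15 and 0.13 (SE 0.11) at 8 weeks. It was the single member called higher in bulk cells from P6 to 8 weeks (log2 1.45, SE 0.14, adjusted p = 0.004042). The call was lost with the library size alone (log2 1.13) and when the entries of each name were summed (log2 1.32). Its interaction of -1.41 (SE 0.18) was not called (adjusted p = 0.073), but was called by edgeR, with the library size alone, with thinned libraries, against a difference of 0, and without 8-week female 1 or P6 male 6.

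Members from outside Sfmbt2 were too few to compare with those inside, and no test was made. Of the 51 tested members with precursors only inside Sfmbt2, 27 were called higher in microglia at 8 weeks and 20 lower with age in bulk cells, with medians of 1.49 and -1.21. The shares over all features were 21.2% and 12.4%. Of the 6 tested members from elsewhere, 3 were called higher in microglia at 8 weeks, namely miR-466k, miR-466i-3p (log2 1.52) and miR-467h (log2 1.69, SE 0.30), and miR-466k fell in bulk cells. miR-467h was low, with medians of 1.62 CPM in microglia and 0.476 CPM in bulk cells of 8 weeks, and it was higher in microglia in 11 of 12 mice. The 5 members with a negative value at 8 weeks were miR-466q, miR-669h-3p, miR-669h-5p, miR-669i and miR-669k-5p, none of which was called. At 8 weeks 27 of the 37 tested members with a mean of 10 CPM or more were called higher in microglia, as were 5 of the 25 below that level. The fall in bulk cells was called for 22 of the 37 and for 1 of the 25.

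For comparison, another large imprinted cluster, the miRNAs of the Dlk1-Dio3 region, which are known for their expression in neurons, had 100 tested features. At 8 weeks 87 of these were lower in microglia and 0 higher, with a median log2 difference of -2.32, and from P6 to 8 weeks 3 were called higher and 8 lower in bulk cells, with a median of -0.01. Over all features 21.2% were higher and 23.7% lower in microglia at 8 weeks, and 13.2% rose and 12.4% fell in bulk cells. Of 7 tested features outside the 4 families whose mature sequence holds UGUGUGU or ACACACA, 1 was called higher in microglia at 8 weeks and 2 lower, with a median of -0.33. Of 16 features of the miR-290 to miR-295 cluster, which is known from embryonic stem cells, 1 was tested, with a log2 difference of -0.34 at 8 weeks. No test was made between these lists and the members.

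Between the sexes 0 of 62 members were called in either fraction at any of the 3 ages, and 0 of 1072 features. No member reached an unadjusted p under 0.05 by TREAT in any of these 6 comparisons, and edgeR and DESeq2 called 0. The bulk cells also changed in cell markers over the interval in which the members fell. From P6 to 8 weeks 1 of 5 neuronal and 2 of 2 oligodendrocyte miRNAs rose in bulk cells, as did 1 of 3 erythroid miRNAs, whose summed median went from 1968 to 4401 CPM. The summed endothelial markers miR-126a-3p and miR-126a-5p had bulk medians of 27403 CPM at P6, 33338 at P15 and 16617 at 8 weeks, but 0 of 2 were called and their median log2 change from P6 to 8 weeks was -0.05. The summed markers of multiciliated cells, miR-34b-5p, miR-34c-5p and miR-449a-5p, had bulk medians of 3225, 2073 and 883 CPM, and 1 of 3 was called lower from P6 to 8 weeks. For 3 markers of mural cells or fibroblasts the bulk medians were 8428, 10833 and 11960 CPM, with 1 called higher and 1 lower from P6 to 8 weeks. The part of these shifts in the fall of the members was not tested.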

How the data were processed

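Small RNA libraries of CD45+ and CD45- cells were analysed from the deposited table of raw read counts per miRNA, which were whole numbers and not normalised. Per the labels and methods, the authors trimmed reads with fastp 0.20.0 and counted them with miRDeep2 against miRBase and GRCm38. Entries of 1 name and near-identical names had equal or nearly equal counts, so that a read could enter several of them. Members and lists were chosen with earlier results of these data known. Both libraries of P6 female mouse 6 were left out of the 70 deposited libraries, because the study removed 1 outlier mouse, whose identity was inferred and is uncertain; including them was an alternative. Counts were scaled with TMM (edgeR 4.0.16) and fitted with limma-voom 3.58.1 in R 4.3.3 on all 1072 tested features, with means for the 12 groups of age, sex and cell type and mouse as a random block. TREAT tested differences against 2-fold, with Benjamini-Hochberg adjustment over all features. The fits were run on simulated counts without a mouse effect or shared reads, so that run says nothing on the pairing or on near-identical members.

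Named were the 12 members with the highest mean CPM and, per comparison, up to 3 called members per direction with the largest change that held in every mouse (cell type) or at least 9 of 10 pairs of libraries (age, interaction), besides members outside this rule that were named after their values were seen (miR-466f-3p, miR-466i-3p, miR-466l-3p, miR-466q, miR-467h, miR-297c-5p, miR-669f-5p, miR-669h-3p, miR-669h-5p, miR-669i, miR-669k-5p, miR-669l-5p). The mouse numbers mark both fractions of 1 brain, so the block follows the design; deviations from the group means correlated at 0.0739 within mice and -0.0154 between mice. CPM values were computed from the counts and the total of 1882 features. Alternatives were DESeq2 1.42.0, edgeR's quasi-likelihood test, other scalings, filters and blocks, quality weights, and leaving out each mouse.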

Additional observations from a re-analysis of the deposited data

Results flagged for a closer look

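In 38 groups of P6 libraries, those of 19 named members in each fraction, 8 had a lowest library far from the other 9; chance alone flags about 1 in 20 groups. Of the 8 values, 5 were from P6 female mouse 5. In its bulk library miR-669a-5p was at 45.3 CPM, miR-466e-3p and miR-466c-3p at 77.2 CPM and miR-466a-3p at 76.4 CPM, of which the last 3 share nearly all reads. In its microglial library miR-466i-5p was at 64.9 CPM. miR-466k was at 3.13 CPM in the bulk library of P6 male mouse 1. miR-466m-5p and miR-669m-5p, which share nearly all reads, were at 1.80 CPM in the microglia of P6 male mouse 4.

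The difference between microglia and bulk cells differed between 8 weeks and P6 for 13 of 19 named members by the interaction test of limma (TREAT). Of all features 6.62% were called in the direction of these members. Because miR-466m-5p, miR-669m-5p and miR-466k were named for the size of this interaction, the count partly follows from the naming rule. On the log2 scale the difference was larger at 8 weeks by 1.86 for miR-467e-5p, 1.72 for miR-669b-5p, 1.57 for miR-669a-5p, 1.58 for miR-466e-3p, miR-466a-3p, miR-466c-3p and miR-669o-5p, 1.70 for miR-467c-5p, 2.13 for miR-466k, 1.93 for miR-297a-5p, 1.66 for miR-466d-5p, 2.57 for miR-466m-5p and 2.56 for miR-669m-5p. That of miR-669a-5p was no longer called with the library size alone (1.44).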

How the results depend on the processing

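Of the 32 members higher in microglia at 8 weeks, 28 to 32 were called again under each other setting or with a mouse left out, as were 18 to 23 of the 23 lower in bulk cells from P6 to 8 weeks, 4 to 6 of the 6 lower from P15 and 20 to 24 of the 24 interactions (merging of near-identical members aside). Leaving out each of 34 mice in turn gave 28 to 33 members higher in microglia at 8 weeks, 21 to 23 lower in bulk cells from P6 to 8 weeks, 4 to 6 lower from P15 to 8 weeks and 23 to 25 with a larger difference at 8 weeks. The block follows the pairing of both fractions of a mouse. With mouse as a fixed replicate block 29 members were higher in microglia at 8 weeks and 24 had an interaction, and with no replicate block 31 and 24, so that no call count moved by over 1.5 times. edgeR called 38 and DESeq2 32 at 8 weeks.

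Testing against 0 in place of 2-fold moved most counts. In microglia against bulk cells 44 members were then higher and 1 lower with ages pooled, 18 and 11 at P6, 29 and 4 at P15 and 53 and 2 at 8 weeks. Of all features 47.7%, 41.5%, 42.5% and 34.9% were then higher and 37.8%, 28.4%, 33.3% and 38.2% lower. With age 1 was higher and 1 lower in microglia from P6 to P15, 14 higher from P15 to 8 weeks, and 16 higher and 3 lower from P6 to 8 weeks, against 15.9%, 17.7% and 23.6% of all features higher and 18.3%, 19.5% and 30.3% lower. In bulk cells 2 were higher in each interval, and 27, 38 and 48 lower from P6 to P15, P15 to 8 weeks and P6 to 8 weeks, against 17.8%, 31.6% and 38.8% of all features higher and 21.0%, 19.0% and 27.4% lower. The interaction was then called for 47 and 3 (17.9% and 35.7% of all features), and 3 members differed between the sexes, all in bulk cells of P15 (1.8% of all features). With the library size alone 19 members were lower in bulk cells from P15 to 8 weeks (9.8% of all features), and 0 were higher from P6 to 8 weeks (9.4%), as was the case with summed entries. The count of 2 at P6 became 1 with DESeq2, with at least 10 counts in 12 libraries, with quality weights and with thinning, and 1 to 2 when a mouse was left out. edgeR called 1 member lower with ages pooled and 1 at P15. In the opposite direction of the interaction 1 member was called by edgeR, with the library size alone, without a filter and with thinning, and 0 to 1 when a mouse was left out (1 without 8-week female 1 or P6 male 6).

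Chosen after seeing the data were the thinning of all libraries to 1678034 counts and the merging of near-identical members. Thinning left 29 calls at 8 weeks, 18 falls in bulk cells and 21 interactions. Merging removed 4 near-identical members and the 9 names with identical counts, so that 1059 features were tested in place of 1072. It changed the reference library of the TMM scaling, shifted the median of all features with ages pooled from 0.29 to 0.13, and left 2 calls with ages pooled, 1 at P15 and 27 at 8 weeks; the cause was not tested further. Of 841 values of named members under the alternatives, among them the lowest and the highest with a mouse left out, 816 stayed on the same side of the threshold in the same direction, 10 lost and 15 gained a call, and 0 changed direction. As for depth, 17 members had a mean under 1 CPM, and 3 counts were worth 1.79 CPM in the shallowest library.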
